A study of Mus musculus with 9 samples.

Results

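The genes described here are named as subunits of the mitochondrial respiratory chain complexes I, III and IV and of the ATP synthase, complex V. They were taken by name from the RNA-seq table of P21 mouse retinas, as symbols that start with Nduf followed by a, b, c, s or v and a digit, Uqcr, Cox4 to Cox8, Atp5, mt-Nd, mt-Co, mt-Cytb or mt-Atp. Of 111 names matched, 13 that end in -ps (pseudogenes) were dropped, which left 98 genes of 55487 rows. Among these, 85 are in the nuclear genome and 13 are mitochondrially encoded. The annotation still lists 4 of the nuclear genes as processed pseudogenes: Ndufa11b, Ndufb4c, Ndufs6b and Cox6c2. Of these, Ndufb4c alone had enough reads for testing, and 100% of its 100-base windows are found in Ndufb4, so its value is uncertain. By name, 40 nuclear genes belong to complex I, 8 to complex III, 19 to complex IV and 18 to complex V.

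Complexes I, III and IV pass electrons to oxygen and pump protons across the inner mitochondrial membrane, and complex V uses the returning protons to make ATP. Mitochondrial DNA encodes a small set of hydrophobic core subunits, which are transcribed from both strands as long precursor RNAs, while all other subunits are made from nuclear genes and imported. In the retina, photoreceptors pack mitochondria into their inner segments to pay for ion pumping and phototransduction.

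Retinas of 3 genotypes on a C57 BL/6J background were compared at P21, with 3 libraries per genotype and the retinas of a pair of animals pooled in each library. Cre negative (Cre-) animals carried no Cre transgene. tHet animals were heterozygous for the floxed (loxp) alleles of Tet1, Tet2 and Tet3, and Tet tcKO animals were homozygous for all 3 alleles, both with the Chx10::Cre-GFP transgene, which acts in retinal progenitors and is mosaic. TET enzymes oxidize methylated cytosine, so the comparison asks how transcript levels differ in a retina that developed without them. Cre+ animals were bred by in-crosses and Cre- animals came from separate breeders, so genotype and breeding line cannot be told apart between Cre- and the other groups.

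Values are CPM, reads of a gene scaled to the library's total of reads counted on genes, which numbered 9627927 to 21108256 per library, so that 1 read was worth 0.0474 to 0.104 CPM. Tet3 was at 99.2 to 152 CPM in Tet tcKO and at 213 to 268 CPM in Cre-, whereas Tet1 and Tet2 overlapped between these groups. These are whole-gene values that include reads outside the floxed exons. All 7 rod and 7 cone markers were detected. The summed CPM of the rod markers was 3217 to 10541 in Tet tcKO, 26052 to 32504 in tHet and 29988 to 36171 in Cre-, and that of the cone markers was 1064 to 1577, 519 to 566 and 435 to 554, respectively. The cone markers did not all move alike. Opn1mw overlapped between genotypes, at 27.2 to 53.4 CPM in Tet tcKO, 30.4 to 66.9 CPM in tHet and 35.2 to 36.5 CPM in Cre-. Pde6c, at 123 to 209, 122 to 147 and 107 to 127 CPM, lay above both groups only with the ribosomal RNA gene named next left out. The other cone markers were higher in each Tet tcKO library than in any other. In bulk retina, fewer cells of a type and less RNA per cell cannot be told apart. The ribosomal RNA gene CT010467.1 held 28.7% of the reads in Tet tcKO replicate 3 and 3.72% in tHet replicate 3, against 0.0409% to 0.226% in the other 7 libraries. Since it enters the library total, leaving it out moved the median log2 fold change (log2FC) of all tested genes from 0.00 to 0.14 for Tet tcKO versus Cre- and from -0.06 to 0.07 for Tet tcKO versus tHet, and values without it are added beside results that change with it.

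The levels of the nuclear genes were set beside each other per kilobase of exon, since longer transcripts collect more reads. The length used is that of all annotated exons of a gene merged, not that of the transcript made in retina. The order of genes, the medians by complex and the isoform shares therefore depend on the annotation. In Cre- retinas the 78 nuclear members with enough reads for testing ranged from 0.733 to 187 CPM per kb, with a median of 17.5 CPM per kb. Atp5b, the catalytic beta subunit of complex V, had the highest level of these at 187 ± 23.2 CPM per kb (SD, n = 3), followed by its alpha subunit Atp5a1 at 150 ± 15.8 CPM per kb. The Cre- libraries of these neighbours in the order lay apart by little, at 162 to 208 CPM per kb for Atp5b and 132 to 160 CPM per kb for Atp5a1. Uqcrb of complex III came next at 85.5 ± 6.18 CPM per kb, below every Atp5a1 library. The median was 15.4 CPM per kb for complex I, 23.9 for complex III, 26.4 for complex IV and 15.9 for complex V.

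Mitochondrially encoded genes were far more abundant, and 7 of them held at least 99.9% of all reads of the 13 in every library. In Cre-, these 7 lay between 1488 ± 310.3 CPM per kb for mt-Nd2 and 5337 ± 1318 CPM per kb for mt-Nd1, both subunits of complex I. Every one of the 7 was at 700 CPM or more in each of the 9 libraries. The other 6 genes, mt-Nd3, mt-Nd4l, mt-Co2, mt-Co3, mt-Atp6 and mt-Atp8, were at 0 to 9.95 CPM, although they lie on the same circular genome. A value of 0 allows up to 0.142 to 0.312 CPM, the worth of 3 reads in the deepest and the shallowest library, by counting error only.

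Each gene's transcripts were split into windows of 100 bases, and each window was looked up in the transcripts of all other genes of GENCODE release M21. For mt-Nd3, mt-Nd4l, mt-Co2, mt-Co3 and mt-Atp6, between 97.6% and 99.9% of the windows were found in another gene, in each case a pseudogene copy on chromosome 1: Gm28438, Gm10222, Gm28661, Gm28437 and Gm10925. The share was 60.8% for mt-Nd4, 30.8% for mt-Co1 and 3.19% for mt-Nd2, and 0% for mt-Nd1, mt-Nd5, mt-Nd6 and mt-Cytb. mt-Atp8 also had a share of 0% and was still at 0 to 0.294 CPM. It lies between mt-Co2 and mt-Atp6, which have such copies, and overlaps with mt-Atp6. Only annotated transcripts were searched, so a copy elsewhere in the genome would be missed and the value of mt-Atp8 is uncertain. The annotated nuclear copies were themselves at 0.0474 to 12.6 CPM. How reads with several matches were counted is not given in the sources used here, so the values of the 5 genes with such copies are uncertain, and those of mt-Nd4 and mt-Co1 can miss reads.

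**Figure D1:**
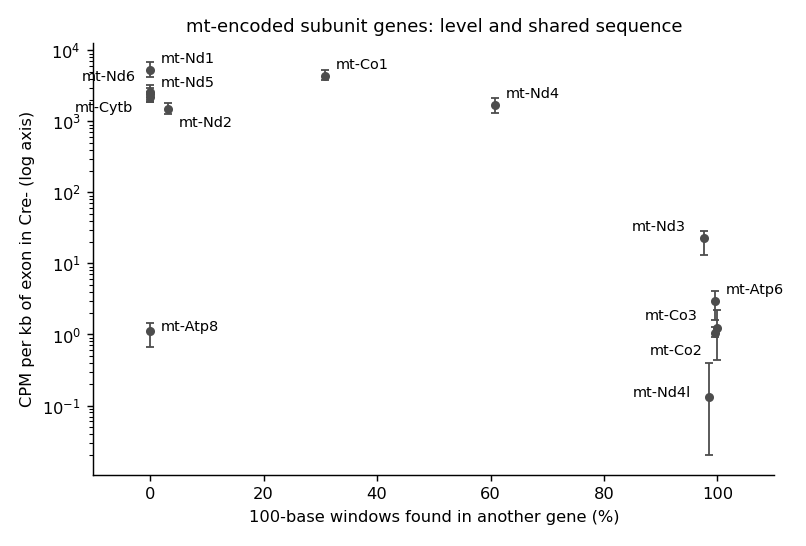
Level of each mitochondrially encoded gene in Cre- retinas (CPM per kb of exon, log axis; point, mean; whiskers, lowest and highest of 3 libraries) against the share of its 100-base windows found in another gene. The 7 genes at 1488 to 5337 CPM per kb share at most 60.8% of their windows, 5 low genes share at least 97.6%, and mt-Atp8 is low with 0%. Only annotated transcripts were searched. The lower whisker of mt-Nd4l stands for 0 and is drawn at the axis limit of 0.02.

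Among the members, 89 reached 0.5 CPM in at least 3 of the 9 libraries and were tested with limma on log2(CPM + 0.5), 78 nuclear and 11 mitochondrially encoded. The 9 others were mt-Nd4l, mt-Atp8, Ndufa11b, Ndufs6b, Cox6a2, Cox6c2, Cox7b2, Cox8c and a second Atp5o entry. Cox6a2 and Cox8b are the muscle isoforms of their subunits, and Cox8c and Cox7b2 are testis isoforms.

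In Tet tcKO versus Cre-, 1 member of the 89 passed an adjusted p under 0.05 (limma, Benjamini-Hochberg over 21330 genes), against 6.5% of all tested genes. That gene, Cox6b2, rose, against 3.53% of all tested genes that rose and 2.98% that fell. It also met the stricter call of a 2-fold or larger change with an adjusted p under 0.01, which 3.6% of all tested genes met. At an unadjusted p under 0.05 there were 5 members, against 16.1% of all tested genes. No member fell past the threshold. In Tet tcKO versus tHet, 1 member passed the adjusted p under 0.05, again Cox6b2, against 5.95% of all tested genes (2.52% higher and 3.43% lower), and 0 were called, against 3%. There were 3 members at an unadjusted p under 0.05, against 17.5%, and edgeR's quasi-likelihood test called 0 and DESeq2 called 1. With CT010467.1 left out of the totals 1 member passed versus Cre-, against 10.2% of all tested genes, and 3 passed versus tHet, against 8.91%, among them Ndufv1, the NADH-binding subunit of complex I, with a log2FC of 0.58 (adjusted p = 0.027, limma). The Tet tcKO libraries are shared by these comparisons, so they are not independent.

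Most nuclear members stayed within a narrow range. The median log2FC of the 78 was -0.10 in Tet tcKO versus Cre-, with quartiles of -0.20 and 0.03, while all tested genes had a median of 0.00 with quartiles of -0.24 and 0.25. With CT010467.1 left out of the totals, the median of these members was 0.05 and that of all tested genes 0.14, so the members' median was 0.10 below that of all genes on the first total and 0.09 below on the second. The 95% interval of the log2FC lay within a 2-fold change in either direction for 73 of the 78 nuclear members (93.6%), against 60.6% of all tested genes. The median SE was 0.25 for these members and 0.31 for all tested genes. The 5 exceptions were Ndufb6, Ndufb8, Cox5a, Cox6b2 and Cox8b. All Tet tcKO libraries lay above all those of Cre- for 2 nuclear members (2.56%), against 10% of all tested genes, and below for 7 (8.97%), against 9.6%. With CT010467.1 left out these shares were 12.8% against 23.3% and 5.13% against 8.19%. Versus tHet, the interval lay within a 2-fold change for 71 of the 78, against 57.7%, and Tet tcKO lay entirely above tHet for 2, against 7.35%, and entirely below for 3, against 9.68%. With CT010467.1 left out, 15 lay above (19.2%), against 18.9%, and 2 below, against 8.79%. The rod marker sum differed between the same libraries as given above, and its part in these values was not tested.

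**Figure D2:**
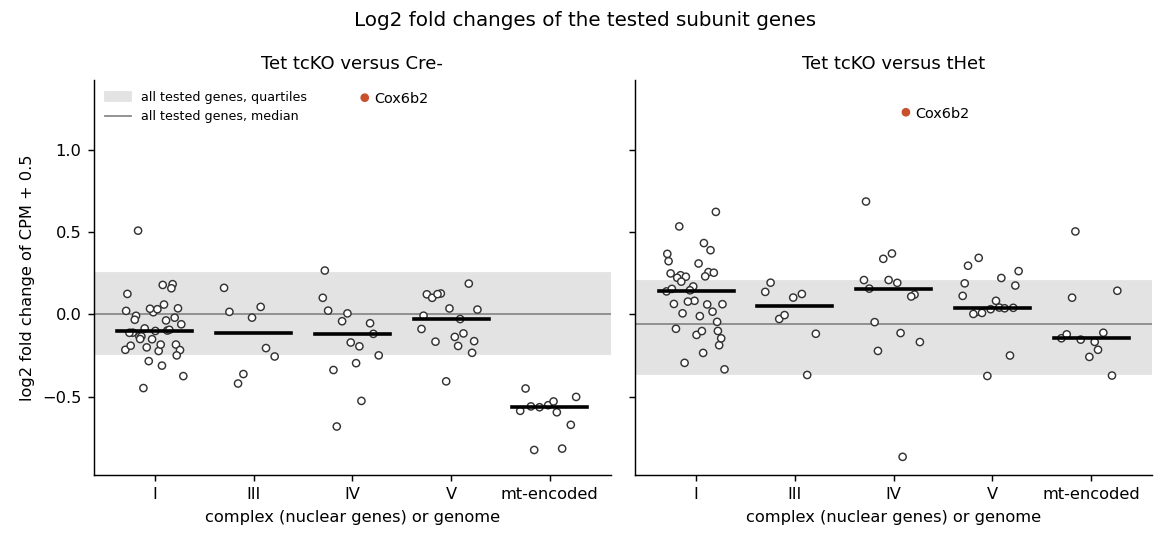
Log2FC of each tested subunit gene (y axis, log2 of CPM + 0.5) by complex for the 78 nuclear members and for the 11 mitochondrially encoded members, in Tet tcKO versus Cre- and versus tHet. Bars are medians, the gray band gives the quartiles of all tested genes and the gray line their median, and filled points passed an adjusted p under 0.05, which Cox6b2 alone did in both panels.

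Complex I takes electrons from NADH. Its 38 tested nuclear members had a median log2FC of -0.10 versus Cre-, and 0 passed the adjusted p. Ndufb8, an accessory membrane subunit, had the highest value. It was at 15.1, 18.2 and 15.8 CPM in Cre-, 17.9, 9.76 and 23.5 CPM in tHet, and 27.0, 18.8 and 25.4 CPM in Tet tcKO. All 3 Tet tcKO libraries lay above all 3 Cre- libraries and overlapped with tHet, and the log2FC versus Cre- was 0.51 ± 0.28 (SE; adjusted p = 0.42, limma).

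Among core subunits, Ndufs1, Ndufs3, Ndufs7, Ndufs8, Ndufv1 and Ndufv2 had log2FC values between -0.28 for Ndufs7 and 0.18 for Ndufv1 versus Cre-, and none of these passed the adjusted p. Ndufa7 was at 0.18 and Ndufb6, a membrane subunit that shares 24% of its windows with another gene, at -0.38. Ndufa4, named for complex I but known as a component of complex IV, had a log2FC of -0.09, and its paralog Ndufa4l2 was at 0.356 to 1.19 CPM in all 9 libraries.

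Complex III hands electrons from ubiquinol to cytochrome c. All 8 of its nuclear members were tested and 0 passed, with a median log2FC of -0.11. Uqcrb was at 77.5, 68.7 and 78.6 CPM in Cre-, 66.2, 35.5 and 78.1 CPM in tHet, and 61.8, 66.6 and 42.1 CPM in Tet tcKO. The Tet tcKO libraries lay below those of Cre- and inside the range of tHet, and the log2FC versus Cre- was -0.42 ± 0.26 (SE; adjusted p = 0.51, limma). Uqcrq followed at -0.36, while Uqcr10 and Uqcr11, small accessory subunits, were highest at 0.16 and 0.05. The core proteins Uqcrc1 and Uqcrc2 and the Rieske iron-sulfur protein Uqcrfs1 had log2FC values of -0.26, -0.02 and 0.02. Cytochrome c1 (Cyc1), a further core subunit whose name the selection does not match, was at -0.02.

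Complex IV reduces oxygen. Among its 15 tested nuclear members Cox6b2 rose, and the median log2FC was -0.12. Cox5a had the lowest value. It was at 8.65, 7.51 and 6.08 CPM in Cre-, 5.90, 5.40 and 4.41 CPM in tHet, and 5.94, 4.41 and 3.19 CPM in Tet tcKO. Both Cre+ groups lay below all Cre- libraries, and the log2FC of Tet tcKO versus Cre- was -0.68 ± 0.30 (SE; adjusted p = 0.25, limma). Cox8b was close to its detection limit at 0.0602 to 0.936 CPM, with a log2FC of -0.53 versus Cre- and -0.87 versus tHet (adjusted p = 0.50 and 0.14, limma). The ubiquitous Cox8a was at 44.4, 37.0 and 42.0 CPM in Cre-, 33.3, 16.3 and 52.1 CPM in tHet, and 61.7, 46.7 and 41.9 CPM in Tet tcKO. Its log2FC of 0.27 versus Cre- and 0.69 versus tHet did not pass (adjusted p = 0.82 and 0.23, limma). Versus tHet it passed without tHet replicate 3, with a log2FC of 1.07 (adjusted p = 0.0105, limma), and without both libraries highest in CT010467.1 (1.18, adjusted p = 0.0365).

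Complex V had 17 tested nuclear members, of which 0 passed, with a median log2FC of -0.03. Atp5b was at 881, 687 and 815 CPM in Cre-, 665, 603 and 757 CPM in tHet, and 929, 689 and 517 CPM in Tet tcKO, so the groups overlapped. Its log2FC was -0.19 versus Cre-, with a 95% interval of -0.74 to 0.35. Atp5a1 had a log2FC of -0.09 with an interval of -0.60 to 0.43. Atp5l, a subunit of the membrane part that helps the synthase form dimers, was at 36.1, 54.2 and 40.4 CPM in Cre-, 48.1, 40.1 and 38.2 CPM in tHet, and 32.1, 31.9 and 32.7 CPM in Tet tcKO. The 3 Tet tcKO libraries lay below all 6 others, but overlapped with both groups once CT010467.1 was left out of the totals, and neither log2FC, -0.41 versus Cre- and -0.37 versus tHet, passed (adjusted p = 0.39 and 0.41, limma). Atp5k and Atp5g3 had the highest values of the complex, 0.19 and 0.13, and Atp5d the second lowest, -0.23.

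Cox6b2 encodes an isoform of the complex IV subunit that faces the intermembrane space near cytochrome c, and it is known mainly from testis, while Cox6b1 is the isoform of most tissues. It was at 3.83, 3.31 and 3.58 CPM in Cre-, 4.10, 2.60 and 5.16 CPM in tHet, and 9.62, 11.4 and 8.13 CPM in Tet tcKO. Tet tcKO libraries lay above all 6 others on both totals. The log2FC was 1.32 ± 0.31 (SE) versus Cre-, with a 95% interval of 0.68 to 1.96 (adjusted p = 0.00966, limma). Versus tHet it was 1.23 ± 0.31 with an interval of 0.59 to 1.87 (adjusted p = 0.0182, limma). tHet and Cre- overlapped, with a log2FC of 0.09. The strict call versus Cre- rests on a value close to its threshold and was lost without any single Tet tcKO or Cre- library or without tHet replicate 1 (adjusted p up to 0.0487), while an adjusted p under 0.05 was kept in each of these. Versus tHet, the adjusted p rose to 0.0618, 0.108, 0.0777 and 0.0608 without tHet replicate 1 or 2 or Tet tcKO replicate 1 or 2. In the same libraries the cone marker sum was 1064 to 1577 CPM in Tet tcKO and 435 to 554 CPM in Cre-. The rod marker sum was 3217 to 10541 CPM and 29988 to 36171 CPM, respectively. The part of these cell types in the rise of Cox6b2 was not tested.

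Cox6b1 did not move with its isoform. It was at 38.4, 32.6 and 33.7 CPM in Cre-, 34.2, 28.0 and 33.2 CPM in tHet, and 47.5, 39.8 and 23.4 CPM in Tet tcKO. Its log2FC was 0.02 versus Cre- and an interval of -0.49 to 0.54. Set per kb of exon, Cox6b2 made up 5.99%, 6.08% and 6.36% of the summed level of both isoforms in Cre-, 7.12%, 5.59% and 9.05% in tHet, and 11.5%, 15.5% and 18.2% in Tet tcKO. This share does not depend on the library total, and it was higher in each Tet tcKO library than in any other. Cox6b1 thus remained the more abundant isoform in all 9 libraries. Neither gene shared any 100-base window with another gene.

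**Figure D3:**
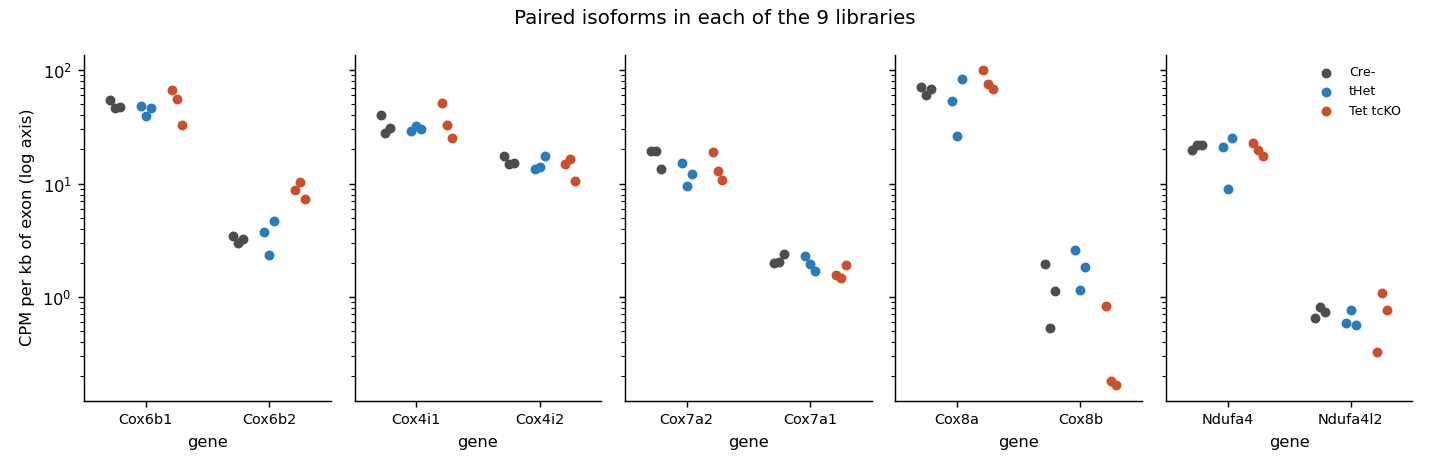
Level of 5 pairs of isoforms or paralogs in each of the 9 libraries (CPM per kb of exon, log axis; each point is a library). Cox6b2 lies at 7.34 to 10.3 CPM per kb in Tet tcKO and at 2.34 to 4.66 CPM per kb in the other genotypes, and in each pair the first gene is the more abundant.

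Cox8b made up 2.66%, 0.879% and 1.63% of the Cox8a and Cox8b level in Cre-, 4.61%, 4.197% and 2.14% in tHet, and 0.821%, 0.242% and 0.246% in Tet tcKO. Tet tcKO lay below all 6 other libraries, on a gene close to the worth of 3 reads. The shares of Cox4i2, Cox7a1 and Atp5g3 overlapped between genotypes. Cox4i2, an isoform known from lung and oxygen sensing, made up 30.2% to 34.4% of the Cox4i1 and Cox4i2 level in Cre- and 22.5% to 33.1% in Tet tcKO. Cox7a1, the heart and muscle isoform, held 9.24% to 15.3% of the Cox7a1 and Cox7a2 level in Cre- and 7.54% to 15.0% in Tet tcKO. Of the 3 genes that encode the identical c subunit of the ATP synthase rotor, Atp5g3 held 66.1% to 72.5% in Cre- and 68.6% to 72.1% in Tet tcKO. Atp5g2 shares 34.7% of its windows with another gene, so its part of this sum is uncertain. Among log2FC values versus Cre-, Cox4i1, Cox6a1, Cox7a2, Cox7a2l and Cox7b ranged from -0.34 to 0.10.

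Cox6b2 lies on chromosome 7 on the minus strand, at chr7:4751792-4753094 of GRCm38, and the gene Fam71e2 ends 132 bases upstream of it on the same strand. Fam71e2 had a mean of 0.546 CPM in the Cre- group and 0.824 CPM with all 3 genes deleted, and its log2FC was 0.47 (adjusted p = 0.66, limma). On the other side, Kmt5c, a histone H4 methyltransferase, had a log2FC of 0.29 (adjusted p = 0.69, limma). No other gene within 25000 bases of Cox6b2 had enough reads for testing. Il11, an interleukin gene 19279 bases away that had too few reads for testing, was at 0.461 to 0.594 CPM in Tet tcKO and at 0 to 0.432 CPM in the 6 other libraries, which did not overlap on either total.

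Since TET enzymes act on methylated cytosine, mostly where a C is followed by a G, the sequence directly upstream of Cox6b2 is shown beside that of Cox6b1, from RefSeq for GRCm38.p6. Both stretches have 131 bases, run 5′ to 3′ on the minus strand and end at the base before the annotated gene, at chr7:4753095-4753225 for Cox6b2 and chr7:30626152-30626282 for Cox6b1. Capitals mark each CG.
Cox6b2: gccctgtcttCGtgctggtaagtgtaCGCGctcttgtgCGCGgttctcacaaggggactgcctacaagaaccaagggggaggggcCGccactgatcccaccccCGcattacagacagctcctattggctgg
Cox6b1: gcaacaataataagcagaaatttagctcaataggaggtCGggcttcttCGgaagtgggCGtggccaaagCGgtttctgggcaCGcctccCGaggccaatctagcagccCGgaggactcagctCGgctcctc

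The stretches hold 7 CG for Cox6b2 and 8 for Cox6b1. In the full RefSeq window, 250 bases before to 50 bases after the start, Cox6b2 has 10 CG and Cox6b1 17 CG. Of 70 such windows from 65 nuclear members, 4 had fewer CG than Cox6b2, and the median was 19 against 7 over all 32851 windows of the table. The letters CCGGAAG, the core of the ETS motif bound by GABPA, were sought on both strands and found in windows of 15 of the 65 members (23.1%) against 9.93% of all genes. CCAAT was found in 28 (43.1%) against 41.1%. The Cox6b2 window held 3 CCAAT and no CCGGAAG, and that of Cox6b1 held 3 CCAAT and a CCGGAAG. DNA methylation at these windows was not analysed here.

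All 11 tested mitochondrially encoded members had a negative log2FC versus Cre-. In limma 0 of them passed the adjusted p, against 6.5% of all tested genes. At an unadjusted p under 0.05 there were 2, against 16.1% of all tested genes. DESeq2 passed mt-Nd3, a gene of uncertain count (adjusted p = 0.0345). Their median was -0.56 against 0.00 for all tested genes, and with CT010467.1 left out of the totals -0.43 against 0.14. For 6 of the 7 abundant genes, mt-Nd1, mt-Nd2, mt-Nd4, mt-Nd5, mt-Cytb and mt-Co1, Tet tcKO lay entirely below Cre- on both totals. The gap was small for mt-Nd5, with 3590 CPM in the highest Tet tcKO and 3594 CPM in the lowest Cre- library. For mt-Nd4 these values were 1797 and 1836 CPM. Of all tested genes, 9.6% lay entirely below Cre- on the first total and 8.19% on the second. These genes come from shared precursor RNAs and are not independent of each other. In the same libraries the rod marker sum was 3217 to 10541 CPM in Tet tcKO and 29988 to 36171 CPM for Cre-. The sum of 5 pigment epithelium markers was 68.0 to 112 CPM in Tet tcKO against 192 to 357 CPM in Cre-. Rlbp1, which is a Müller glia marker too, held most of it, at a mean of 60.7 CPM against 184 CPM. Rpe65, Lrat and Ttr were lower (log2FC of -1.87, -1.60 and -1.47), while Best1 was not (0.31). The sum of 5 endothelium and pericyte markers was 249 to 379 CPM against 217 to 222 CPM, most of it from Kdr and Rgs5. Kdr, Rgs5, Cdh5 and Cldn5 had log2FC values of 0.55, 0.63, 0.97 and 0.95, and Pecam1 went the other way at -0.31. All markers of these lists were detected, and the part of these cell types in the mitochondrial values was not tested.

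mt-Cytb, the mitochondrially encoded subunit of complex III, had the largest difference of the 7. It was at 2987, 2349 and 2130 CPM in Cre-, 1776, 864 and 2250 CPM in tHet, and 1479, 1696 and 1092 CPM in Tet tcKO. Tet tcKO lay below Cre- and inside the range of tHet, with a log2FC of -0.82 ± 0.35 versus Cre- (SE; 95% interval -1.54 to -0.09; adjusted p = 0.22, limma). mt-Co1, the catalytic subunit of complex IV, was at 8058, 5943 and 6328 CPM in Cre-, 4798, 3955 and 6796 CPM in tHet, and 5360, 4985 and 3506 CPM in Tet tcKO. Its log2FC was -0.56 ± 0.39 (SE; adjusted p = 0.59, limma), and Tet tcKO lay below Cre- and overlapped with tHet.

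The complex I genes mt-Nd1, mt-Nd2, mt-Nd4 and mt-Nd5 had log2FC values of -0.59, -0.60, -0.67 and -0.55 versus Cre-, with adjusted p between 0.33 and 0.58 (limma). mt-Nd6, the one protein gene on the opposite strand, was at 1677, 961 and 1426 CPM in the Cre- group. In Tet tcKO it was at 1134, 1119 and 708 CPM, so that the groups overlapped. Its log2FC was -0.45 (adjusted p = 0.59, limma). Among the low genes of uncertain count, mt-Nd3 was at 9.95, 8.97 and 4.59 CPM in the Cre- group. In Tet tcKO it was at 4.57, 5.07 and 2.71 CPM, a log2FC of -0.82 (adjusted p = 0.20, limma). mt-Co2, mt-Co3 and mt-Atp6 had values of -0.50, -0.53 and -0.56. For none of the 11 did the 95% interval lie within a 2-fold change, and every lower bound was beyond a log2FC of -1.

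**Figure D4:**
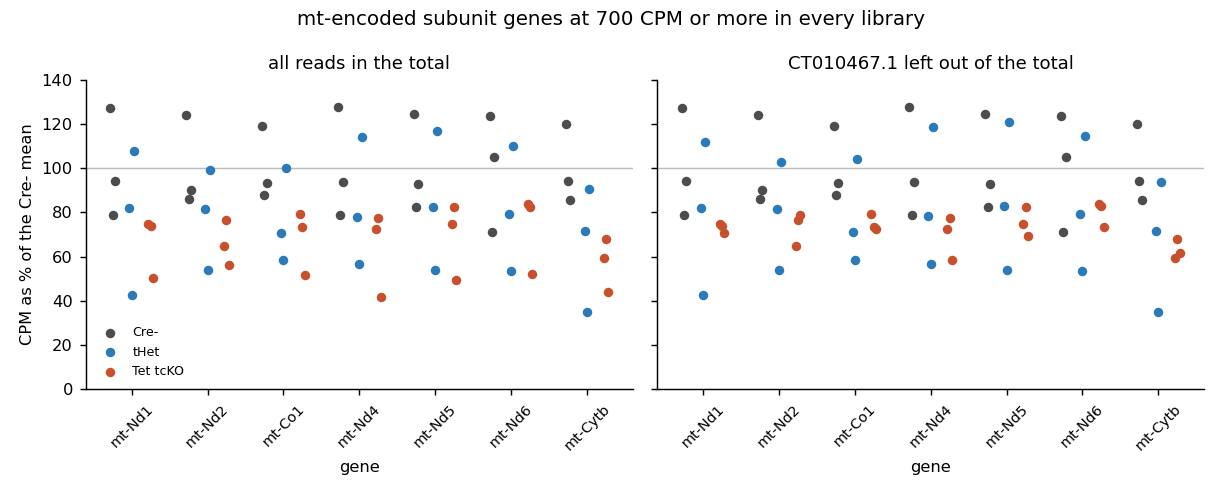
CPM of the 7 abundant mitochondrially encoded genes in each library as a percent of the Cre- mean (y axis; each point is a library), with all reads in the library total and with CT010467.1 left out. Tet tcKO libraries lie below all Cre- libraries for 6 genes and overlap for mt-Nd6, and the lowest tHet points belong to tHet replicate 2.

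Versus tHet, the mitochondrially encoded members had a median log2FC of -0.15 against -0.06 for all tested genes, and 0 of the 11 lay entirely above or below tHet. On totals without CT010467.1 the median was -0.00 against 0.07, and 1 of the 11, mt-Nd3 with its uncertain count, lay entirely above tHet (9.09%), against 18.9%. Every one of the 7 abundant genes overlapped. The summed CPM of the 13 genes was 18512, 12225 and 25328 in tHet, 29551, 20053 and 22316 in Cre-, and 17746, 18138 and 11879 in Tet tcKO. tHet replicate 2 was the shallowest library and held the lowest sum of the tHet group. Without it, the median log2FC versus tHet was -0.45 for mitochondrially encoded and -0.03 for nuclear members, so both medians depend on this library. Other libraries moved them too. With each library left out in turn, the medians ran from -0.45 to 0.13 and from -0.03 to 0.23.

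The nuclear members summed to 4344, 3810 and 4144 CPM in Cre-, 3659, 2997 and 4204 CPM in tHet, and 4655, 3761 and 3060 CPM in Tet tcKO, so that no genotype stood apart. With CT010467.1 left out, the sum of Tet tcKO replicate 3 was 4294 CPM, and its mitochondrially encoded sum was 16666 CPM. The Tet tcKO libraries then lay close together for the mitochondrially encoded genes, at 16666 to 18153 CPM, below the Cre- range of 20061 to 29568 CPM and inside the tHet range of 12231 to 26307 CPM.

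**Figure D5:**
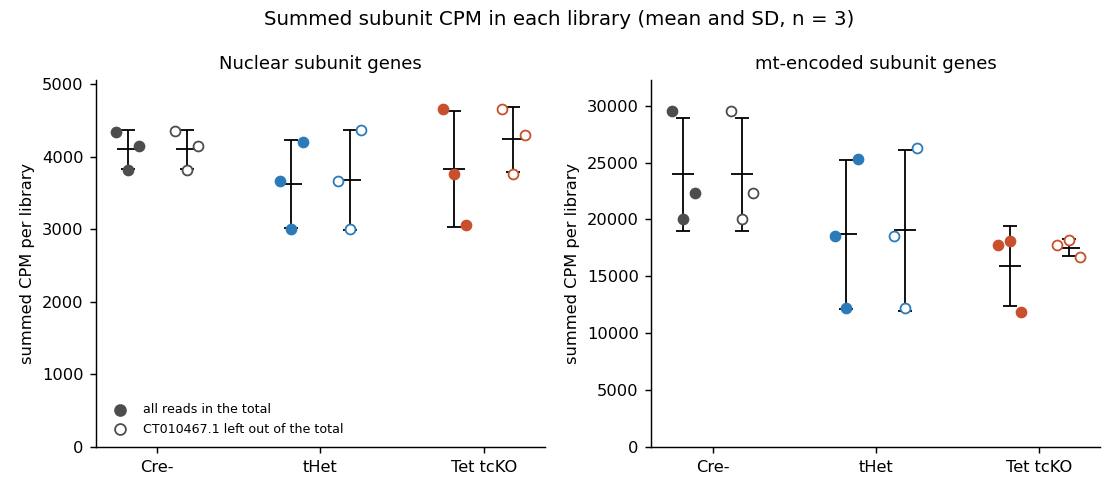
Summed CPM of the nuclear and of the mitochondrially encoded members in each library (points), with the mean and SD of 3 libraries per genotype, for all reads (filled) and with CT010467.1 left out of the total (open). Nuclear sums overlap between the genotypes, and mitochondrially encoded sums of Tet tcKO lie below those of Cre- and within the tHet range once CT010467.1 is left out.

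The ratio of both sums is free of the library total. It was 6.80, 5.26 and 5.39 in Cre-, 5.06, 4.08 and 6.03 in tHet, and 3.81, 4.82 and 3.88 in Tet tcKO. All Tet tcKO libraries were below all Cre- libraries and overlapped with tHet replicate 2. The mitochondrial ribosomal RNA mt-Rnr2, measured in libraries that had gone through rRNA removal, had 122736, 76423 and 96096 CPM in the Cre- group, which overlapped with its 102137, 73160 and 57657 CPM in Tet tcKO. Per 100 reads of mt-Rnr2 there were 24.1, 26.2 and 23.2 reads of the mitochondrially encoded members in Cre-, 22.9, 23.6 and 25.6 in tHet, and 17.4, 24.8 and 20.6 in Tet tcKO, which overlapped as well.

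In tHet versus Cre-, 0 of the 89 members passed the adjusted p under 0.05, against 0.0938% of all tested genes (limma), 0 were called, against 0.0422%, and 2 had an unadjusted p under 0.05, against 4.55%. DESeq2 passed 1 member, mt-Nd3, a gene of uncertain count, and edgeR 0. With CT010467.1 left out 0 passed in limma, against 0.0703%. The interval lay within a 2-fold change for 70 of the 78 nuclear members, against 69.7%. The median log2FC was -0.18 for nuclear and -0.41 for mitochondrially encoded members, against 0.06 for all tested genes, and without tHet replicate 2 it was -0.06 and -0.14. Of the 78 nuclear members, 14 had all tHet libraries below all Cre- libraries, against 5.37% of all tested genes, and 0 had all above, against 5.78%. On totals without CT010467.1, 9 lay below, against 4.84%. Among the 14 were Ndufv1, Ndufv2, Ndufs7, Ndufs8, Cox5a, Cox6c, Atp5c1 and Atp5pb. Of these, Ndufv1 and Ndufv2 overlapped with Cre- on totals without CT010467.1.

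Other genes of the pathway were described by lists. Of all tested genes, 6.5% passed the adjusted p versus Cre- and 5.95% versus tHet. A list of 4 complex II subunits, the electron carrier cytochrome c (Cycs) and cytochrome c1 of complex III (Cyc1) had 6 tested genes and 0 past the adjusted p in either Tet tcKO comparison, with median log2FC values of -0.08 versus Cre- and 0.02 versus tHet. Of 44 tested assembly factors, which insert cofactors and join subunits, 0 passed in either, with medians of 0.02 and 0.03. Mitochondrial ribosomal proteins, which translate the 13 mitochondrially encoded proteins, also had 0 of 77 past the threshold, with medians of 0.02 and 0.11. Among cytosolic ribosomal proteins, 1 of 86 passed versus Cre- and 0 versus tHet. That gene, Rplp1, a protein of the ribosomal stalk, fell with a log2FC of -1.11 (adjusted p = 0.0309, limma), where 2.98% of all tested genes fell. The medians of this list were -0.23 and 0.14, on opposite sides of 0. Of 9 tested mitochondrial rRNA and tRNA genes 0 passed, with medians of 0.24 and 0.33.

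Of 22 tested genes of mitochondrial biogenesis and mtDNA expression, 1 fell versus Cre-, against 2.98% of all tested genes, and 3 fell versus tHet, against 3.43%, and 0 rose in either. Esrrb, an orphan nuclear receptor of rods that acts on energy metabolism genes, was at 404, 343 and 360 CPM in Cre-, 297, 355 and 238 CPM in tHet, and 15.0, 93.6 and 35.7 CPM in Tet tcKO. It fell with a log2FC of -3.30 versus Cre- and -2.97 versus tHet (adjusted p = 1.62e-05 and 6.7e-05, limma). Esrrb is itself rich in rods, the rod marker sum was lower in the same libraries, and its part in this fall was not tested. Its relative Esrra had a log2FC of 0.05 and 0.16 and did not pass.

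Ppargc1b, a coactivator of these receptors and of mitochondrial gene expression, was at 54.9, 79.0 and 77.7 CPM in Cre-, 109, 122 and 80.1 CPM in tHet, and 43.6, 45.8 and 37.9 CPM in Tet tcKO. The Tet tcKO libraries lay below all others. It was called versus tHet with a log2FC of -1.26 (adjusted p = 0.00111, limma), and its value versus Cre- was -0.71 (adjusted p = 0.0645, limma). Polg2, the accessory subunit of the mitochondrial DNA polymerase, fell versus tHet with a log2FC of -1.46 (adjusted p = 0.012, limma), and its value versus Cre- was -1.13 (adjusted p = 0.0557, limma). Ppargc1a, Nrf1, Gabpa and Tfam, further regulators of subunit and mtDNA transcription, had log2FC values of -0.11, -0.33, -0.03 and -0.11 versus Cre-, and none passed in either comparison.

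Of 12 tested adenine nucleotide and phosphate carriers and creatine kinases, which move ATP and phosphate out of and into mitochondria, 1 rose versus Cre-, against 3.53% of all tested genes, and 0 versus tHet, against 2.52%. Ckmt1, a mitochondrial creatine kinase, was at 86.1, 76.0 and 66.0 CPM in Cre-, 107, 107 and 90.4 CPM in tHet, and 199, 122 and 102 CPM in Tet tcKO. Its log2FC was 0.84 versus Cre- (adjusted p = 0.0365, limma) and 0.42 versus tHet (adjusted p = 0.40, limma), and Tet tcKO replicate 3 overlapped with tHet. On totals without CT010467.1, Tet tcKO lay above all tHet libraries. The exchangers Slc25a4 and Slc25a5 had log2FC values of -0.42 and -0.44 versus Cre- and did not pass (adjusted p = 0.48 and 0.34, limma).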

How the data were processed

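Bulk RNA-seq of 9 P21 retina libraries was analysed, 3 per genotype, grouped by their labels. The authors removed rRNA, made stranded libraries, trimmed reads, aligned them to mm10 with STAR 2.7.0f and counted them on genes with HTSeq 0.11.2 (versions from the submitters' processing notes). Annotation release, strand setting and handling of multiply matching reads are not given in the sources used here. They deposited CPM over each library's total. The log2 fold changes and p-values that the authors deposited from their own edgeR comparisons, and their mean columns, were not used.

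All CPM values gave whole reads (100%, within 0.01). Genes at 0.5 CPM or more in 3 libraries (21330) were tested on the log2 scale, after adding 0.5 CPM, in limma (version 3.58.1; R 4.3.3; 1 mean per genotype, trend, Benjamini-Hochberg). edgeR 4.0.16 and DESeq2 1.42.0 on the recovered reads were alternatives. Nothing states that libraries of a genotype share no source, so p-values measure only the spread between pools. The fit was tested on simulated data. Positions and exon lengths are from GENCODE release M21, which held 54349 of the identifiers.

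Genes named are the members past a threshold, the 2 highest and 2 lowest nuclear log2FC per complex versus Cre-, mitochondrially encoded members, listed isoforms and core subunits, and called genes of the pathway lists, with others by way of context. A gene that this rule names is not reported here. Members and lists were chosen with earlier results of these data known. 3 alternatives were added after seeing the data. Figures were drawn with matplotlib 3.10.9.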

Additional observations from a re-analysis of the deposited data

How the results depend on the processing

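Cox6b2 kept its direction and an adjusted p under 0.05 versus Cre- under all 24 alternatives, with a log2FC of 1.20 to 1.47. The count of members called versus Cre- was 0 in place of 1 with a pseudocount of 0.1, no filter on low values, TMM scaling, totals without mitochondrially encoded genes, edgeR, or without both libraries highest in CT010467.1, and 0 to 1 when each library was left out. Members past the adjusted p versus Cre- numbered 2 without the filter and with DESeq2 (mt-Nd3 added). Versus tHet, 1 member was called with CT010467.1 left out of the totals, with CT010467.1 and mitochondrially encoded genes left out, with a replicate block on either total, and with DESeq2, and 0 to 1 without single libraries. Members past the adjusted p versus tHet numbered 3 with CT010467.1 left out, 2 with mitochondrially encoded genes left out as well, 4 with CT010467.1 left out and the replicate block, 3 without both libraries highest in CT010467.1, and 0 to 2 without single libraries. Without those libraries, the median log2FC versus tHet was 0.36 for nuclear and 0.32 for mitochondrially encoded members. For tHet versus Cre-, 1 member was called by DESeq2, and 1 passed with DESeq2 and with the replicate block. The mean summed CPM of nuclear members in Cre- was 4754 with totals without mitochondrially encoded genes and 4757 with CT010467.1 left out too, where Tet tcKO had 4803 for nuclear and 19834 for mitochondrially encoded members. The cause of these differences was not tested. Libraries of the same number did not all deviate together (r of -0.35 to 0.56), so the replicate numbers were not taken as pairs. mt-Atp8, mt-Nd4l and Cox8b lie near the worth of 3 reads. Depth limits Cox8b. mt-Nd4l and mt-Atp8 are of uncertain count as described above, and the cause of their low values was not tested.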
